A study of Mus musculus with 16 samples.

Results

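The Bcl2 family genes Bcl2, Bcl2l1, Mcl1, Bcl2l11, Bid, Bad, Bak1 and Bmf were followed across sorted mouse blood stem and progenitor cells. They were chosen by name, and they are 8 of the 18194 genes that a probe set of the array names alone. For each gene the probe set of highest mean over all 16 arrays was taken, and the gene's other probe sets were then described on their own, 30 in all. Values are the deposited intensities, and changes are differences of log2(intensity + 16) with the standard error (SE) of limma, a linear model fitted across all genes. A gene or probe set is called higher or lower when its p-value, adjusted over everything tested in that comparison by the Benjamini-Hochberg method, was under 0.05.

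Proteins of this family decide whether a stressed cell permeabilises its outer mitochondrial membrane, releases cytochrome c and dies by apoptosis. Bcl2, Bcl-xL (the product of Bcl2l1) and Mcl1 bind and restrain their death-promoting relatives, Bak1 together with Bax forms the pore, and the BH3-only proteins Bim (the product of Bcl2l11), Bid, Bad and Bmf switch the pathway on. In blood formation Mcl1 is known to be required by stem cells and by early lymphoid cells, Bim limits the lifespan of lymphocytes, and signalling through the interleukin 7 receptor keeps lymphoid progenitors alive in part by sustaining Bcl2 and restraining Bim.

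Hematopoietic stem cells (HSC), which renew all blood lineages, were arrayed in 4 groups of 3 replicates. Young HSC came from wild-type mice of 9 to 12 weeks and old HSC from wild-type mice of 24 months. Mid-aged wild-type HSC (genotype Polgtm1Lrsn+/+) and mutator HSC (Polgtm1Lrsn-/-) both came from mice of 32 weeks. Mutator mice carry a mitochondrial DNA polymerase that lacks proofreading. Common lymphoid progenitors, or CLP, of wild-type mice aged 8 to 12 weeks were sorted as Ly6D- or Ly6D+, with 2 replicates each, and Ly6D marks the CLP that lean to the B lineage. Every mouse is labelled C57Bl6 and female, the tissue is bone marrow, and no group is labelled as treated. The replicates are labelled biological, and whether animals were pooled is not given in the sources used here. In these bulk samples fewer cells of a type and less RNA per cell cannot be told apart.

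The sorted identities held against their markers, since 9 of 9 HSC markers were lower and 10 of 10 CLP markers higher in CLP than in young HSC. Eif2s3y, a Y-linked transcript, stood at 423 to 758 and Xist at 9.12 to 16.8 in all 4 CLP arrays and in mid-aged wild-type replicate 3, against the label female, while the other 11 arrays had Xist at 3507 to 11022. A difference between CLP and HSC therefore cannot be told apart from one that goes with these sex-linked transcripts, except by that single HSC array, whose values are given below. The log2 ratio of 3′ to 5′ actin probe sets, a sign of RNA length, was 4.24 to 5.26 in the 6 mid-aged arrays. It was 2.20 to 2.61 in young and old HSC and 2.11 to 2.52 in Ly6D- CLP. In Ly6D+ CLP it was 2.51 in replicate 1 and 3.85 in replicate 2, the highest of the 4 CLP arrays. The part of this ratio in any difference with the mid-aged arrays or with Ly6D+ replicate 2 was not tested. The summed level of 10 neutrophil genes ran from 199.5 to 6512 over the HSC arrays and from 1871 to 7970 over the CLP arrays. Other lists separated CLP from HSC. The 5 matched T and NK cell genes summed to 727 to 1202 in CLP and 157 to 360 in HSC, and 4 megakaryocyte genes to 136 to 214 in CLP and 1094 to 2327 in HSC, and their part in the differences between CLP and HSC was not tested.

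All 8 genes passed the filter on dim probe sets, as 14344 genes did in the fit of 16 arrays. With 1 probe set a gene, only Bmf of the 8 differed between CLP and young HSC, where 30.7% of all genes tested were called, and only Bmf differed between CLP and mid-aged wild-type HSC, where 28% were. The median change of the 8 was 0.20 against young HSC and 0.0042 against mid-aged wild-type HSC, beside 0.01 and 0.03 over all genes tested. These comparisons share the CLP arrays. The share of the 8 that was called lay below the background share in both. With a gene's probe sets averaged in place of the brightest, Bcl2 (0.93, adjusted p = 0.0169) and Bcl2l11 (0.59, adjusted p = 0.00234) were also called against young HSC, and Bcl2l11 against mid-aged wild-type HSC (0.45, adjusted p = 0.0137).

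**Figure D1:**
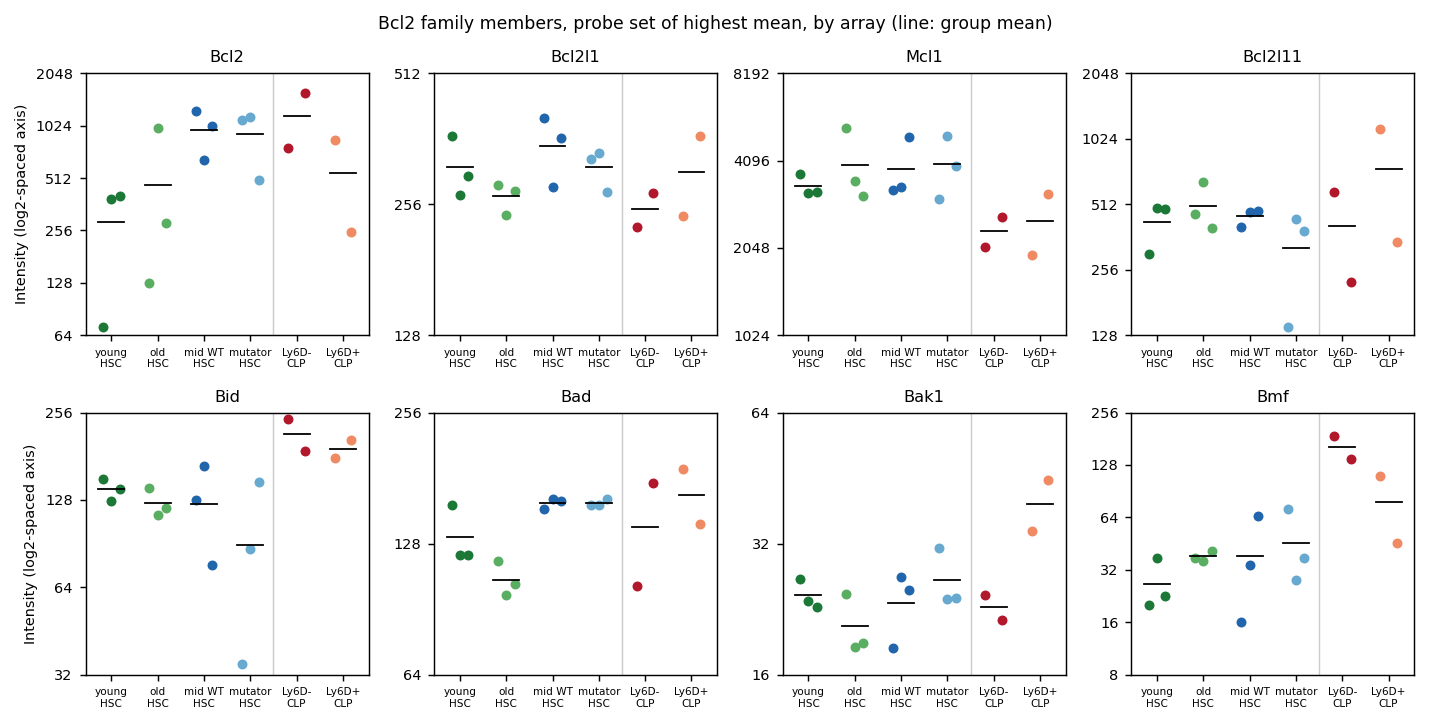
Intensity (log2-spaced axis) of the highest-mean probe set of each of the 8 genes on all 16 arrays, with a line at each group mean (3 arrays per HSC group, 2 per CLP group). Bmf reached 45.4 to 188 in CLP and 15.9 to 71.3 in HSC, and the Bcl2 panel scatters from 71.8 to 1576 with wide spread inside groups.

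Bcl2 is the founding survival gene of the family, on mouse chromosome 1. Its highest-mean probe set, 1440770_at, read 71.8, 387 and 401 in young HSC and 128, 990.4 and 282 in old HSC. It read 1239, 647 and 1021 in mid-aged wild-type HSC and 1108, 1152 and 498 in mutator HSC. In Ly6D- CLP it read 761 and 1576, and in Ly6D+ CLP 848 and 249.9. All neighbouring groups in the order of their means overlapped, and within old HSC alone the brightest array was several times the dimmest. The change of CLP from young HSC was 1.57 (SE 0.697) with an adjusted p of 0.108 in limma, and from mid-aged wild-type HSC -0.38 with an adjusted p of 0.734.

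Another Bcl2 probe set gave tighter groups. Probe set 1437122_at read 47.7, 99.0 and 97.3 in young HSC, 114, 147 and 115 in old HSC, 46.3, 103 and 105 in mid-aged wild-type HSC and 72.0, 100.1 and 68.2 in mutator HSC. It read 273 and 367 in Ly6D- CLP and 152 and 277 in Ly6D+ CLP, so every CLP array lay above every HSC array. Fitted with every probe set on its own, it was higher in CLP than in young HSC by 1.53 (SE 0.290, limma adjusted p = 0.00178) and higher than in mid-aged wild-type HSC by 1.49 (adjusted p = 0.00221). Without mid-aged replicate 3 that difference was 1.66 (adjusted p = 0.00377). That replicate, the HSC array with the sex-linked pattern of the CLP arrays, read 105, below all 4 CLP arrays.

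The remaining Bcl2 probe sets divided again. Probe set 1443837_x_at was higher in CLP (149 to 440.1) than in young HSC (65.9 to 124) by 1.26, with an adjusted p of 0.0250 in limma, and its change from mid-aged wild-type HSC was 0.59, with an adjusted p of 0.281. Its call was lost without young replicate 1 or 3, Ly6D+ replicate 1 or Ly6D- replicate 2, with changes from 0.89 to 1.27. Probe sets 1457687_at (277 to 608) and 1422938_at (64.9 to 188), above the 40th percentile on all 16 arrays, changed by 0.18 and 0.09 against young HSC and were not called. Over the 16 arrays the correlation of 1437122_at with 1440770_at was 0.23, a description of points that share arrays and groups. The position of each probe set along the transcript is not given in the sources used here. By the array maker's naming, the suffix _x marks probes that may bind other sequences, _s a set shared by several transcripts and _a alternative transcripts of a gene.

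The promoter windows below belong to Bcl2, Bcl2l11 and Bmf, shown because each of these genes had a probe set that was higher in CLP in both comparisons with HSC. They come from RefSeq's GRCm38.p6 annotation, run 5′ to 3′ over the 250 bases before the annotated start and the 50 bases from it on, and carry any match to 5 motifs in capitals. These were TGTTTAC (bound by FOXO factors), TTCNNNGAA (bound by STAT5), the E-boxes CAGCTG and CAGGTG (bound by E proteins) and the EBF1 motif, each searched on both strands.
Bcl2, chr1:106714241-106714540, minus strand: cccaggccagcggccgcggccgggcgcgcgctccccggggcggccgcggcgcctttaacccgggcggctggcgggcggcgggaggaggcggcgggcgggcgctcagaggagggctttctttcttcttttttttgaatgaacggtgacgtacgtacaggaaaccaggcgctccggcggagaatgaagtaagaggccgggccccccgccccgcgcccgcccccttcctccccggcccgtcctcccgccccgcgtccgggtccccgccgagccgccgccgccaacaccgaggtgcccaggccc
Bcl2l11, chr2:128125788-128126087, plus strand: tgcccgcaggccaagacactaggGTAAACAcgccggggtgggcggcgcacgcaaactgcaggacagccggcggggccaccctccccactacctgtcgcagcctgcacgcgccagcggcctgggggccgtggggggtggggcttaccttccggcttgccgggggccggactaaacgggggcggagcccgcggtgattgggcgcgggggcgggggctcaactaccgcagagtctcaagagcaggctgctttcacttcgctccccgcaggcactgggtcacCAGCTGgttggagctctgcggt
Bmf, chr2:118549637-118549936, minus strand: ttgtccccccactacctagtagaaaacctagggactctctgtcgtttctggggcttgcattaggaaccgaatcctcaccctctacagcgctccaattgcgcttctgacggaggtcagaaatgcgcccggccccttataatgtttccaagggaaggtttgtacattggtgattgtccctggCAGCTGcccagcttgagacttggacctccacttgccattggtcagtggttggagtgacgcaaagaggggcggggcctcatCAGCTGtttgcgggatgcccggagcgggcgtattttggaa

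The Bcl2 window held no match and had a GC content of 76.0%, beside a median of 52.7% over 32851 such windows. The printed Bcl2l11 window held the FOXO letters as GTAAACA from position -227 and the E-box CAGCTG from position 28, counted from 0 at the start base. The other annotated Bcl2l11 window, chr2:128127325-128127624, held 0 matches. All 3 annotated Bmf windows held CAGCTG, and the printed window held it from positions -70 and 10. Of all windows, 3.65% held the FOXO letters, 16.3% CAGCTG, 20.21% CAGGTG, 8.3% TTCNNNGAA and 0.9% the EBF1 motif. These matches describe letters in the windows and nothing about binding in these cells.

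Bcl2l1 encodes Bcl-xL, a survival protein that is prominent in maturing red cells and platelets. Its highest-mean probe set read 367, 269 and 298 in young HSC and 284, 242 and 275 in old HSC. It ranged from 273 to 403 over the 6 mid-aged arrays and from 227 to 368 over the 4 CLP arrays. The changes of CLP were -0.17 from young HSC (limma adjusted p = 0.504) and -0.33 from mid-aged wild-type HSC (adjusted p = 0.194). Of its other 3 probe sets, 2 were above the 40th percentile on no array, and 1426191_a_at was above it on 4 of 16 and changed by 0.33 against young HSC (adjusted p = 0.110).

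Mcl1 encodes a short-lived survival protein on which HSC depend. Its highest-mean probe set, 1437527_x_at, read 3682, 3163 and 3194 in young HSC, 5299, 3496 and 3084 in old HSC, 3231, 3319 and 4945 in mid-aged wild-type HSC and 3013, 4976 and 3928 in mutator HSC. In CLP it read 2066 and 2615 (Ly6D-) and 1932 and 3145 (Ly6D+). Only the brightest CLP array, Ly6D+ replicate 2, reached into the range of the HSC arrays. The change of CLP was -0.48 (SE 0.246) from young HSC with an adjusted p of 0.167 in limma, and -0.65 from mid-aged wild-type HSC with an adjusted p of 0.0674. It passed the threshold against mid-aged wild-type HSC with quantile normalization (-0.80, adjusted p = 0.0235), with eBayes trend and robust settings (-0.65, adjusted p = 0.0490) and without Ly6D+ replicate 2 (-0.82, adjusted p = 0.0316), and not against young HSC in any setting run.

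The 6 Mcl1 probe sets fell into blocks that ordered the groups differently. The 3 whose names end in _x_at correlated at 0.95 to 0.99 with each other over the 16 arrays. Probe set 1416880_at instead read 2465, 1882 and 1832 in young HSC and 3869, 2213 and 2112 in old HSC, against 720.3, 1079 and 803 in mid-aged wild-type HSC and 506, 1259.9 and 1132 in mutator HSC. It read 786 and 1015 in Ly6D- CLP and 752 and 1472 in Ly6D+ CLP. All young and old HSC arrays thus lay above all other arrays, an order that was not counted over all probe sets. In limma it was lower in CLP than in young HSC, with a change of -1.06 (SE 0.333, adjusted p = 0.0317), and lower in mid-aged wild-type than in young HSC, with a change of -1.24 (adjusted p = 0.0228). Without mid-aged replicate 3 the latter was -1.20 and was not called (adjusted p = 0.0637), and the change of CLP from mid-aged wild-type HSC was 0.18 (adjusted p = 0.740). The call against young HSC was lost without any 1 of the young arrays, without Ly6D+ replicate 1 or without Ly6D- replicate 1 (-1.14 to -0.82), and the call between mid-aged and young HSC also without any 1 of the young arrays or without mid-aged replicate 1 (-1.32 to -1.11). Probe sets 1448503_at and 1416881_at changed by -0.79 and -0.66 in CLP against young HSC and were not called (adjusted p = 0.0579 and 0.168). The groups with the lowest values of this probe set include the mid-aged groups, whose actin ratios are the highest, and Ly6D- CLP, whose ratios are like those of young HSC. The part of RNA length was not tested.

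**Figure D2:**
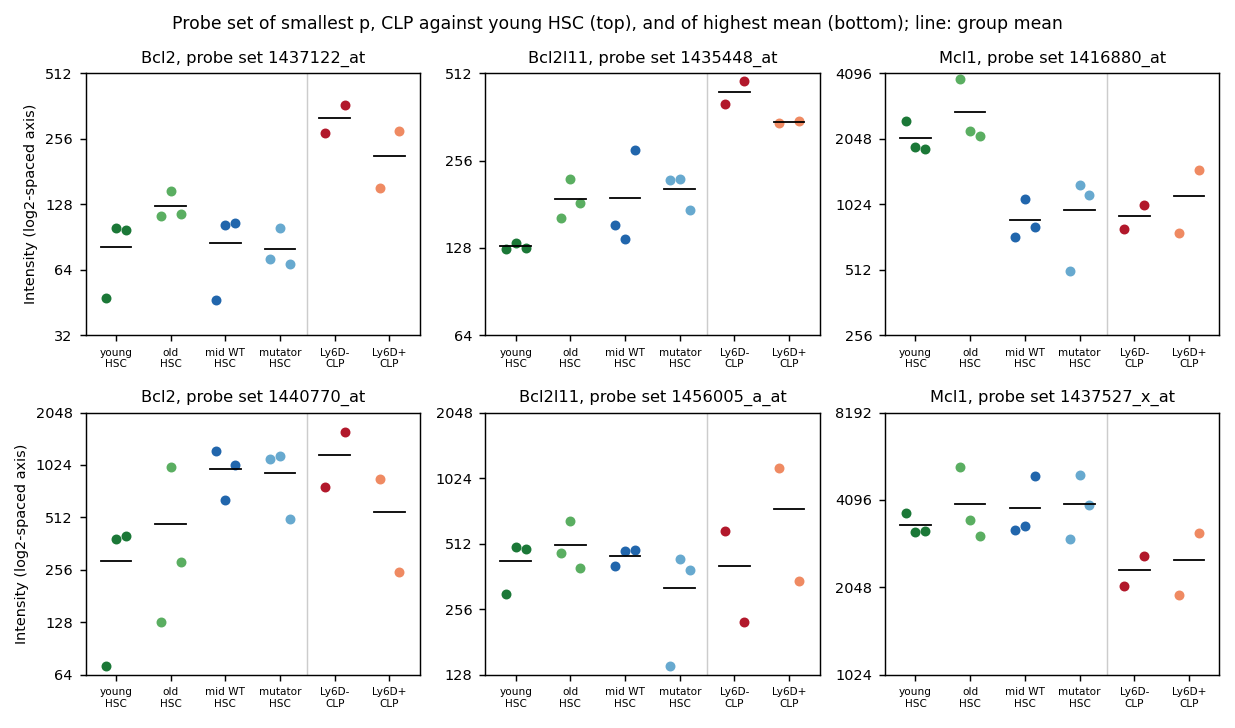
Intensity (log2-spaced axis) on all 16 arrays for 2 probe sets each of Bcl2, Bcl2l11 and Mcl1, with a line at each group mean. The upper probe set of each gene was picked for the smallest limma p of CLP against young HSC, and the lower for the highest mean. Every CLP array lies above every HSC array for Bcl2 1437122_at (152 to 367) and Bcl2l11 1435448_at (344 to 480.5), as for 6.04% of all probe sets tested. The highest-mean probe sets of these genes, below them, overlap across groups.

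Bcl2l11 encodes Bim, a BH3-only protein that can bind all the survival members. Its highest-mean probe set, 1456005_a_at, ranged from 140.0 to 649 over the HSC arrays and read 585 and 224 in Ly6D- CLP and 1136 and 345 in Ly6D+ CLP. The CLP replicates lay further apart than the HSC group means, and the change from young HSC was 0.19 (SE 0.448, limma adjusted p = 0.782). From mid-aged wild-type HSC it was 0.09 (adjusted p = 0.908). Leaving out single arrays moved the change from young HSC between -0.22 and 0.61, never past the threshold.

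Probe set 1435448_at of the same gene read 127, 133 and 128 in young HSC, 162, 222 and 183 in old HSC, 154, 137 and 279 in mid-aged wild-type HSC and 219, 221 and 173 in mutator HSC. In CLP it read 402 and 480.5 (Ly6D-) and 344 and 351 (Ly6D+). Every CLP array lay above every HSC array, young HSC were the tightest group, and the HSC array nearest to CLP was mid-aged wild-type replicate 3 at 279. It was higher in CLP than in young HSC by 1.48 (SE 0.201, limma adjusted p = 1.51e-04) and higher than in mid-aged wild-type HSC by 1.05 (SE 0.201, adjusted p = 0.00209), or by 1.34 without that array (adjusted p = 9.75e-05). Fitted on the groups compared alone, the difference from mid-aged wild-type HSC missed the threshold (adjusted p = 0.0580). Its correlation with 1456005_a_at over the 16 arrays was 0.03.

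A further Bcl2l11 probe set, 1435449_at, was between 12.8 and 21.2 on all HSC arrays, mostly below the 40th percentile, and read 55.0 and 17.5 in Ly6D- CLP and 31.7 and 138 in Ly6D+ CLP. It was higher in CLP than in young HSC by 1.02 (limma adjusted p = 0.0330), a change whose size depends on the pseudocount, and the call was lost in 9 of 18 other settings, among them without any 1 of the young arrays, without Ly6D+ replicate 2 (0.59) or without Ly6D- replicate 1 (0.74). Probe set 1456006_at changed by 0.27 (adjusted p = 0.351), and 1426334_a_at passed the percentile on no array.

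Bmf is a BH3-only protein that is tethered to the motor complexes of the cytoskeleton until it is released. Probe set 1454880_s_at read 20.2, 37.3 and 22.5 in young HSC, 37.6, 35.7 and 41.1 in old HSC, 15.9, 34.1 and 64.8 in mid-aged wild-type HSC and 71.3, 27.8 and 37.4 in mutator HSC. It read 188 and 138 in Ly6D- CLP and 111 and 45.4 in Ly6D+ CLP. All Ly6D- arrays and 1 Ly6D+ array lay above every HSC array, and Ly6D+ replicate 2 lay among the HSC arrays. That replicate had the highest actin ratio of the CLP arrays (3.85), whose part was not tested. Bmf was higher in CLP than in young HSC by 1.58 (SE 0.331, limma adjusted p = 0.00284) and higher than in mid-aged wild-type HSC by 1.31 (adjusted p = 0.00968). Without mid-aged replicate 3 the latter was 1.65 (adjusted p = 0.00336).

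The call for Bmf against young HSC held in all 20 other settings, with adjusted p-values from 0.00129 to 0.0162. Against mid-aged wild-type HSC it was lost with array weights (0.94, adjusted p = 0.110) and when only the groups compared were fitted (adjusted p = 0.0783). Ly6D+ minus Ly6D- CLP gave -1.01 for Bmf with a limma adjusted p of 0.334. The neutrophil genes summed to 4619 to 7970 in Ly6D- CLP and to 1871 to 2409 in Ly6D+ CLP, and Bmf stood in the same order. In young, old, mid-aged wild-type and mutator HSC these sums reached 5852, 1594, 6512 and 5350, and Bmf reached 37.3, 41.1, 64.8 and 71.3. These highest values were not matched by array. The part of the neutrophil genes was not tested. The other Bmf probe sets, at 10.8 to 30.8 on all arrays, changed by 0.03 each against young HSC.

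Bid is cleaved by caspase 8 and carries the death receptor signal to mitochondria. Its highest-mean probe set read 151, 127 and 139 in young HSC, 141, 113 and 120.4 in old HSC, 127, 168 and 76.1 in mid-aged wild-type HSC and 34.9, 86.4 and 148 in mutator HSC. It read 244 and 188 in Ly6D- CLP and 179 and 206 in Ly6D+ CLP. All 4 CLP arrays stood above all 12 HSC arrays, as was so for 6.75% of all genes tested. The change from young HSC was 0.50 (SE 0.320), the change from mid-aged wild-type HSC 0.70, and neither passed the threshold (limma adjusted p = 0.271 and 0.124). Fitted on CLP and young HSC alone, which left out all other groups together, the change of 0.50 had an SE of 0.137 and an adjusted p of 0.0377.

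A weaker Bid probe set, 1447873_x_at, read 24.7 to 30.4 in young HSC, 24.5 to 32.1 in old HSC, 38.3 to 62.5 in the 6 mid-aged arrays and 35.7 to 71.1 in CLP. Young and old HSC lay below all the others, an order that was not counted over all probe sets. It was higher in CLP than in young HSC by 0.60 (limma adjusted p = 0.0158) and higher in mid-aged wild-type than in young HSC by 0.58 (adjusted p = 0.0216), or by 0.69 without mid-aged replicate 3. Without young replicate 2 or 3 neither was called (0.56 and 0.57, 0.54 and 0.55), nor was the former without Ly6D+ replicate 1 (0.52). The change of CLP from mid-aged wild-type HSC was 0.02 (adjusted p = 0.947). The last Bid probe set, 1448560_at, was above the 40th percentile on 4 arrays and changed by 0.08 against young HSC.

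Bad is a BH3-only protein that growth factor signalling holds inactive by phosphorylation. Its highest-mean probe set was nearly flat inside the mid-aged groups, at 154, 162 and 160.4 in wild type and 157, 157 and 162 in mutator HSC. It read 157, 120.4 and 120.3 in young HSC, 116, 97.7 and 103 in old HSC, 102 and 176 in Ly6D- CLP and 189 and 142 in Ly6D+ CLP. Old HSC formed the dimmest group by mean, with a change of -0.28 from young HSC (limma adjusted p = 0.624). The change of CLP from young HSC was 0.16 (adjusted p = 0.509) and from mid-aged wild-type HSC -0.08 (adjusted p = 0.762). Its other probe set, 1416583_at, ranged from 35.8 to 133 and changed by 0.18 in CLP against young HSC (adjusted p = 0.647).

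Bak1, which forms pores in the outer mitochondrial membrane, was dim throughout. Its probe set 1418991_at read 18.4 to 31.2 over the 12 HSC arrays, 24.4 and 21.3 in Ly6D- CLP and 34.1 and 44.8 in Ly6D+ CLP. Both Ly6D+ arrays lay above the other 14, an order that was not counted over all genes. The difference of Ly6D+ from Ly6D- CLP was 0.51 (SE 0.170, unadjusted p = 0.0105 in limma) and was not called after adjustment (0.169). Against young HSC the change of all CLP was 0.20 (adjusted p = 0.277), and the other Bak1 probe set was above the 40th percentile on no array.

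**Figure D3:**
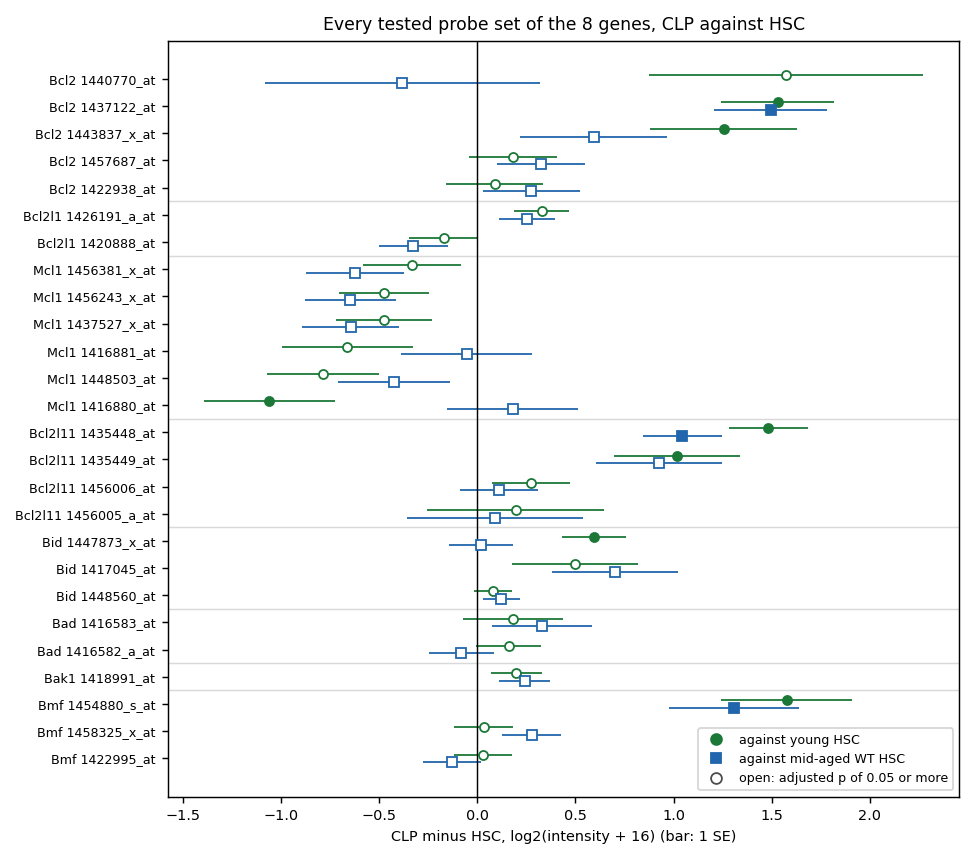
Change of CLP from young HSC (circles) and from mid-aged wild-type HSC (squares) in log2(intensity + 16) for the 26 tested probe sets of the 8 genes, with bars of 1 SE and filled symbols for a limma adjusted p under 0.05. Of the 26, 7 were called against young HSC and 3 against mid-aged wild-type HSC, and probe sets of Bcl2, Bcl2l11 and Bmf carry the 3 filled squares.

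Counted over probe sets, 7 of 26 were called between CLP and young HSC, 6 higher and 1 lower. The background was 26.6% of 26030 probe sets called, 11.2% higher and 15.4% lower. Against mid-aged wild-type HSC 3 of 26 were called, all higher, where the background was 25% called. The called share of the 26 was thus close to the background against young HSC and below it against mid-aged wild-type HSC. Every CLP array lay above every HSC array for 3 of the 26 probe sets, where 6.04% of all probe sets did so, and for 0 of 26 every CLP array lay below, where 4.92% did so.

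Old against young HSC, mutator against mid-aged wild-type HSC and Ly6D+ against Ly6D- CLP gave no call in limma for any of the 8 genes or their probe sets. Old against young HSC called 1.31% of 13482 genes and 1.01% of all probe sets. Of the 8 genes 0 had an unadjusted p under 0.05 in limma, and of their 24 tested probe sets 2 did. Over everything tested, 9.03% of genes and 8.42% of probe sets had an unadjusted p that low. Both of the 2 were Bcl2 probe sets, and they moved in opposite directions. Bcl2 1457687_at read 313, 395 and 476 in young and 508, 559 and 582 in old HSC, a change of 0.48 with an adjusted p of 0.413. Bcl2 1443837_x_at read 65.9 to 124 in young and 25.1 to 85.0 in old HSC, a change of -0.78 with an adjusted p of 0.556. The 8 changes ran from -0.28 to 0.51, with a median of 0.03 beside -0.01 over all genes.

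Mutator against mid-aged wild-type HSC called 0% of 13482 genes, although 984 had an unadjusted p under 0.05, and none of the 8 did. Their changes ran from -0.61 for Bcl2l11 (adjusted p = 0.781) to 0.22 for Bmf, with a median of -0.06. On the highest-mean probe sets of Bcl2l11 and Bid the dimmest array of all 16 was mutator replicate 1, at 140.0 and 34.9. Other probe sets of these genes differed. Bcl2l11 1435448_at read 219 in that replicate, above all young HSC arrays (127 to 133), and its mutator change was 0.15. Bid 1447873_x_at read 38.9 to 45.2 in mutator HSC, above all young and old HSC arrays. Without mid-aged wild-type replicate 3, whose sex-linked transcripts go against its label, 1 of all 13482 genes was called and none of the 8. With so few calls this count says little about the 8.

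Ly6D+ against Ly6D- CLP called 2.68% of 14344 genes and 2.53% of all probe sets. Of the 8, Bak1 and Bmf had an unadjusted p under 0.05, as had 1859 of all 14344 genes (13%), and neither passed the adjustment. Mid-aged wild-type against young HSC called 24.2% of 13482 genes and 0 of the 8, with Bcl2 at 1.96 (adjusted p = 0.0700) and Bad at 0.24 (adjusted p = 0.231). Of 24 probe sets, 2 were called there, Bid 1447873_x_at and Mcl1 1416880_at, given above, where 23.1% of all probe sets were.

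The wider death pathway was described by 5 gene lists. Of the rest of the Bcl2 family 9 of 17 genes were tested, and 3 were higher and 1 lower in CLP than in young HSC, with a median of 0.30 beside 0.01 over all genes. That is 4 of 9 called, where 30.7% of all genes were, 12.5% higher and 18.2% lower. Bok, a relative of Bak1, was higher by 0.96 (212 ± 108 in CLP, SD, n = 4, and 91.6 ± 14.7 in young HSC, n = 3). Bcl2l12 was higher by 1.02 and Bcl2l14 by 0.86. Bnip3, a mitochondrial BH3-like protein induced by low oxygen, was lower, with a change of -1.62 (267 ± 86.0 and 836 ± 187, limma adjusted p = 3.30e-04). It was also lower in mid-aged wild-type than in young HSC (-0.91, adjusted p = 0.0117). Its change in CLP from mid-aged wild-type HSC was -0.71 and was not called (adjusted p = 0.0510). Bok, Bcl2l12 and Bcl2l14 were also higher against mid-aged wild-type HSC, by 0.69, 0.92 and 0.63, which made 3 of 9 called where 28% of all genes were. Bok was higher in Ly6D+ than in Ly6D- CLP by 1.19 (adjusted p = 0.0180). Bax, Bcl2a1a, Bcl2a1b, Bcl2a1d and Bnip3l are not analysed here.

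Downstream of the mitochondria, 3 of 13 genes of caspases and the apoptosome were higher and 1 lower against young HSC. Cytochrome c (Cycs) was higher by 1.05 and the nuclease gene Endog by 1.20. Parp1, a DNA repair enzyme that caspases cleave, was higher by 1.53 (limma adjusted p = 9.26e-06), and Aifm1, a mitochondrial flavoprotein, was lower, with a change of -1.32. The median of the 13 was -0.08, and 12.5% of all genes were higher and 18.2% lower. Endog was also higher (1.97) and Aifm1 lower (-1.85) in mid-aged wild-type than in young HSC, and the changes of CLP from mid-aged wild-type HSC were -0.77 and 0.53, neither called. Against mid-aged wild-type HSC 6 of 13 were higher and 0 lower, where 15.8% of all genes were higher and 12.2% lower, among them Casp8 by 1.66 and Casp2 by 1.72. Both of these were lower in mid-aged wild-type than in young HSC, with changes of -1.47 and -1.83. Of the inhibitors of caspases and their antagonists, Naip5 was lower in CLP than in young HSC, with a change of -1.90, and Birc5 (survivin, also a mitotic protein) higher by 0.90. The other 6 of 8 were not called, and the median was -0.14.

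Of the death receptor pathway 4 of 12 genes were lower and 0 higher in CLP than in young HSC, with a median of 0.01, where 18.2% of all genes were lower and 12.5% higher. They were the ligand gene Tnfsf10 (-1.68), the receptor gene Tnfrsf1a (-0.56), Cflar, an inhibitor of caspase 8 activation (-0.78), and the deubiquitinase gene Cyld (-1.85). Tnfsf10, Cflar and Cyld were also lower in mid-aged wild-type than in young HSC, with changes of -1.47, -0.66 and -1.40. Against mid-aged wild-type HSC 1 of 12 was higher in CLP, the adaptor gene Fadd (0.81), and 2 were lower, Tnfrsf1a (-0.69) and the receptor gene Tnfrsf25 (-0.43), where the background was 15.8% higher and 12.2% lower. Of the upstream regulators 4 of 21 were higher and 6 lower against young HSC, with a median of -0.31, and 4 were higher and 1 lower against mid-aged wild-type HSC, with a median of 0.09. Myc was higher by 1.66 and Huwe1, a ligase that targets Mcl1, by 1.01. Dynll2, the dynein light chain that binds Bmf, was lower, with a change of -2.16 (308 ± 91.9 in CLP, SD, n = 4, and 1410.4 ± 277 in young HSC, n = 3), as was the survival kinase gene Pim1, with -1.27. In mid-aged wild-type HSC, too, Dynll2 was lower than in young HSC (-1.87) and Huwe1 higher (1.04). From mid-aged wild-type HSC the changes of CLP were -0.29 for Dynll2 and -0.03 for Huwe1, neither called. Pim1 changed by -0.98 in mid-aged wild-type against young HSC and by -0.29 in CLP against mid-aged wild-type HSC, neither called. Foxo1, a transcription factor that can induce Bcl2l11, was higher in Ly6D+ than in Ly6D- CLP by 2.55 (2041 ± 378 and 332 ± 8.66, SD, n = 2 each, limma adjusted p = 0.00116). Limma called 0 of 62 tested list genes in old against young HSC, where 7 had an unadjusted p under 0.05, and 0 of 62 in mutator against mid-aged wild-type HSC, where 5 did. Of all 13482 genes 9.03% had one in the former comparison and 7.3% in the latter.

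**Figure D4:**
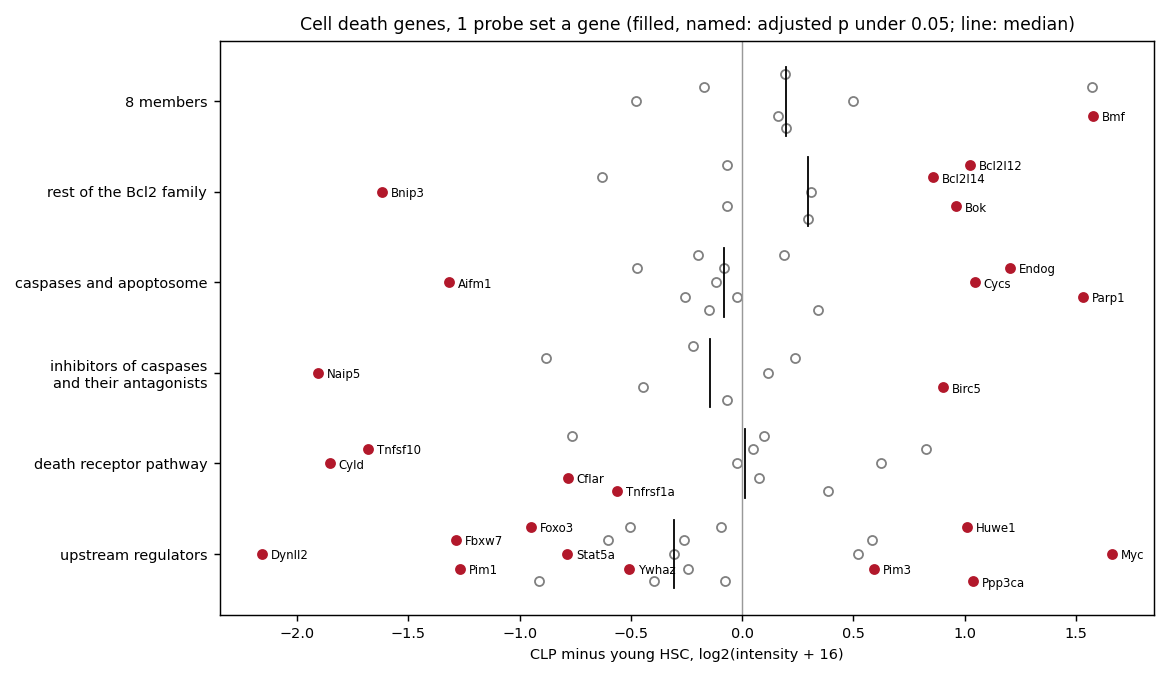
Change of CLP from young HSC in log2(intensity + 16) for the tested genes of the 8-gene set and of 5 lists of the death pathway, 1 probe set a gene, with filled, named points for a limma adjusted p under 0.05 and a line at each median. Of the 8 genes Bmf alone is filled, and the filled points of the death receptor list all lie left of 0.

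The highest-mean probe sets of the 8 genes did not follow each other closely over the 16 arrays. Among the 28 pairs their correlation ran from -0.61 for Mcl1 with Bmf to 0.48 for Bcl2l1 with Mcl1, as a description of arrays that share groups. Other probe sets of these genes, which can differ from the highest-mean ones, were not compared between genes. The genes most like each member's highest-mean probe set among 13438 compared were Taf1d for Bcl2 (0.91), Wdtc1 for Bcl2l1 (0.89), Tmem159 for Mcl1 (0.84), Tdp1 for Bcl2l11 (0.82), Prmt7 for Bid (0.94), Tff1 for Bad (0.85), Nmnat2 for Bak1 (0.91) and Mir425 for Bmf (0.95). Each value is the largest of 13438 over 16 arrays and describes that probe set, not the gene's others.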

How the data were processed

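The arrays are Affymetrix mouse expression arrays of biotinylated cRNA made from 4000 to 7000 cells a sample, per the labels' protocols. The authors deposited 1 linear intensity for each of 45101 probe sets, with the summary method and normalization not given in the sources used here. Probe sets with 1 gene symbol in the platform annotation (34958) were kept, 932 with several and 9211 with none were left out, and no symbol was changed by matching Entrez IDs. The precision is limited by the number of arrays.

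Intensities were taken to log2(intensity + 16) and fitted with lmFit and eBayes of limma 3.58.1 (R 4.3.3), comparisons with CLP on all 16 arrays and comparisons among HSC on the 12 HSC arrays. A gene was tested if its probe set exceeded the 40th percentile of intensity (16.6 to 21.3) on at least 2 of 16 or 3 of 12 arrays. P-values were adjusted by Benjamini-Hochberg over all genes, or over all probe sets, of a comparison, and measure the spread between these arrays. The fits were tested on simulated data. The named genes are the 8 members, up to 4 called genes of each list or else the 2 of smallest p, the gene most correlated with each member, and genes named for checks. The members, lists and tests were chosen with earlier results of these data known. Alternatives covered normalization, filter, pseudocount, probe set choice, fit settings, replicate block, groups fitted and each array left out, and fitting every probe set under the other settings was added after seeing the data. No explanation of any difference was tested.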

Additional observations from a re-analysis of the deposited data

How the results depend on the processing

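Changes were followed over all settings for the 8 genes in CLP against HSC, and for the 2 genes of smallest p in each other comparison. Of 471 such changes 447 kept their direction and side of the threshold, 2 lost the call, 9 gained it and 13 changed sign, none of these 13 called either way. Only Bmf was called in the main fits, so most of the 447 were uncalled changes that stayed uncalled. Of 215 refits of called probe sets 175 kept the call and 40 lost it. Bcl2 1437122_at kept it in all 18 settings in both comparisons with HSC, Bcl2l11 1435448_at and Bmf 1454880_s_at in all 18 against young HSC, and against mid-aged wild-type HSC in 17 and 15. Members called against young HSC (1) became 3 with the mean of all probe sets, 5 with every probe set and 2 with only the groups compared. With every probe set, a gene counts when any of its probe sets is called. Genes called in that comparison (4404) ran from 3218 to 5525 over the settings that kept all arrays. Members called against mid-aged wild-type HSC (1) became 2 with quantile normalization, 2 with the mean of all probe sets, 3 with every probe set, 2 with trend and robust settings, 0 with array weights and 0 with only the groups compared, and 1 to 2 with an array left out (2 without Ly6D+ replicate 2). Genes called there fell from 4022 to 1733 with only the groups compared, and reached at most 5093 in the other settings. Genes called between Ly6D+ and Ly6D- CLP (384) became 601 with every probe set, 105 with array weights and 0 with only the groups compared, and 307 to 752 with an array left out (752 without Ly6D- replicate 1). Genes called between old and young HSC (176) became 1879 with array weights, 994 with only the groups compared, 93 with young replicates 2 and 3 (the most alike, Spearman 0.989) counted as 1, and 88 to 114 with an array left out. Genes called between mutator and mid-aged wild-type HSC (0) became 222 without mid-aged wild-type replicate 2 and 1 without replicate 3, a range of 0 to 222. Genes called between mid-aged wild-type and young HSC (3258) became 2031 with young replicates 2 and 3 as 1 and 2043 to 4161 with an array left out (2043 without young replicate 2, 2050.0 without young replicate 3). Members called there (0) became 1 with quantile normalization and 1 with the 60th percentile filter, in each case Bcl2, and 2 with every probe set. Genes called there ran from 2031 to 4336 over the settings that kept all arrays. Signs turned, uncalled, for Bcl2l1 against young HSC with the mean of all probe sets (0.050), and against mid-aged wild-type HSC for Bcl2 (0.46) and Bad (0.12) with that mean and for Bcl2l11 with quantile normalization (-0.12). With an array left out, changes against young HSC ran from -0.22 to 0.61 for Bcl2l11 and from -0.015 to 0.34 for Bad. Against mid-aged wild-type HSC they ran from -0.33 to 0.51 for Bcl2l11, from -0.81 to 0.043 for Bcl2 and from -0.26 to 0.093 for Bad. The cause of these shifts was not tested. Whether replicate numbers pair the arrays was not settled by the correlations of same-number arrays. No 2 groups with 3 pairs had all of them over 0.1. They ran from -0.01 to 0.50 for old and young HSC and from -0.06 to 0.34 for mutator and mid-aged wild-type HSC. The 2 pairs of young HSC and Ly6D- CLP had 0.110 and 0.115. With the replicate number as a block, called genes were 4227 for CLP against young HSC, 3862 against mid-aged wild-type HSC, 355 for Ly6D, 172 for old against young, 0 for mutator and 3395 for mid-aged wild type against young, with 1, 1, 0, 0, 0 and 0 members.

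The groups hold 2 or 3 arrays. Probe sets near the 40th percentile (Bak1, Bmf, Bcl2l11 1435449_at) have changes whose size depends on the pseudocount. CLP cannot be told apart from the sex-linked pattern of their arrays, and mid-aged HSC cannot be told apart from their high actin ratio.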
